A study of Mus musculus with 6 samples.

Results

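The nuclear genes of oxidative phosphorylation (OXPHOS) were followed in H3K27ac ChIP-seq peak lists of young mouse retina. Members were all protein-coding genes of the GENCODE annotation of GRCm38 on chromosomes 1 to 19 and X whose symbols begin with Nduf, Cox4 to Cox8, Uqcr or Atp5, together with Sdha, Sdhb, Sdhc and Sdhd. This rule used names and no measured value, and gave 94 genes with 93 symbols of 21755 protein-coding genes. A gene was counted as marked in a list if a peak overlapped the region within 2.5 kb of any of its transcription start sites (TSS) by at least 1 bp.

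Histone H3 acetylated at lysine 27 (H3K27ac) is a mark of active promoters and enhancers, and it was measured by ChIP-seq with 1 antibody in all samples. Wild-type mice, 3 months old at the first treatment, had the intraocular pressure (IOP) of 1 eye raised to 30 mmHg for 1 h every other week, 4 times in all (4xIOP), and the untreated eye on the other side served as control. Bulk retina was collected on day 2 after the last elevation, and each of 6 samples (3 control, 3 4xIOP) is represented by 1 peak list. The treatment text common to all samples also names dasatinib or vehicle injection, which no label assigns to any of these samples. The study describes its H3K27ac replicates as biological and handled the retina of each eye separately, but it counts fewer of them per group than the labels give, and which it used was not stated. No source used here states which eyes came from 1 mouse, and p-values measure the spread between these samples.

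In 4 of the 6 samples, control replicates 1 and 2 and 4xIOP replicates 1 and 2, the deposited list carries the name of the other group. The samples were kept as labelled. Every direction below holds for the labels. Marked shares, fold percentiles and folds of named genes are given list by list, so that they can be read without the group names. Group means, counts of higher and lower genes and limma results are given for the labels only and cannot be read that way. Only control replicate 3 and 4xIOP replicate 3 carry a name that matches the label.

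OXPHOS couples the transfer of electrons along complexes I to IV of the inner mitochondrial membrane to the pumping of protons, whose return through ATP synthase drives ATP production. A few core subunits are encoded in mitochondrial DNA, and all other subunits and the assembly factors are nuclear genes that must be expressed in balance. Photoreceptors hold densely packed mitochondria in their inner segments, and rods make up most cells of the mouse retina. Several subunits of complex IV exist as isoforms, with a common form and a form known from muscle, testis or lung. NRF1, the ETS factor GABP and YY1 are transcription factors known to bind OXPHOS promoters.

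Complex IV has isoform pairs in which one gene was marked in every list and the other was not, and promoter sequences of 3 such pairs are shown first. The windows run from 250 bases before to 50 bases after the RefSeq start (GRCm38.p6), are read 5′ to 3′ on the strand of the gene, and have in capitals every match, on either strand, to NRF1 (GCGCANGCG), ETS (CCGGAAGT), YY1 (AAGATGGC), Sp (GGGCGG), CRE (TGACGTCA), the CCAAT box (CCAAT) and the TATA box (TATAAA). Cox7a2 (chr9:79759804-79760103, minus strand) and the muscle form Cox7a1 (chr7:30183921-30184220, plus strand) are followed by Cox8a (chr19:7217567-7217866, minus strand) and the muscle form Cox8b (chr7:140900397-140900696, minus strand), then by Cox6b1 (chr7:30626065-30626364, minus strand) and the testis form Cox6b2 (chr7:4753045-4753344, minus strand).
Cox7a2: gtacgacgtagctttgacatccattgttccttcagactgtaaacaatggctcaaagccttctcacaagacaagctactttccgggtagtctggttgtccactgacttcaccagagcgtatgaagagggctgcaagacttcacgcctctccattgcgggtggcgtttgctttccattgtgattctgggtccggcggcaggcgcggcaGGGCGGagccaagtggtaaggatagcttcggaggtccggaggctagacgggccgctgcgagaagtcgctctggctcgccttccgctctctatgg
Cox7a1: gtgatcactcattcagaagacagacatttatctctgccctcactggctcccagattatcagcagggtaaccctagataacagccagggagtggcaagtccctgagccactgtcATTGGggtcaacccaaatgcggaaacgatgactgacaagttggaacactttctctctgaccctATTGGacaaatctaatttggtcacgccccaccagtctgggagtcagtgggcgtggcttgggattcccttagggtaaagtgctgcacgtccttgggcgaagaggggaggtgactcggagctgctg
Cox8a: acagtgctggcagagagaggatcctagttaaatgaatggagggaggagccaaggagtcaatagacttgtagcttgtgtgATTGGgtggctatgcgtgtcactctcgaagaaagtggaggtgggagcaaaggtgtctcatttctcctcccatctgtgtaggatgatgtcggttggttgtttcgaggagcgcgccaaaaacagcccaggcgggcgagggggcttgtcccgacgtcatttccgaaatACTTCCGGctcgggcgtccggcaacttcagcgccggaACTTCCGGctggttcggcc
Cox8b: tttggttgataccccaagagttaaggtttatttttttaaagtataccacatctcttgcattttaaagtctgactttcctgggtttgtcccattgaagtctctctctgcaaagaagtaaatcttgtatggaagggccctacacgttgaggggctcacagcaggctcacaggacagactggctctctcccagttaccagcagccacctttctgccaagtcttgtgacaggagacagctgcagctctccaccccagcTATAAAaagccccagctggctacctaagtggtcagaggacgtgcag
Cox6b1: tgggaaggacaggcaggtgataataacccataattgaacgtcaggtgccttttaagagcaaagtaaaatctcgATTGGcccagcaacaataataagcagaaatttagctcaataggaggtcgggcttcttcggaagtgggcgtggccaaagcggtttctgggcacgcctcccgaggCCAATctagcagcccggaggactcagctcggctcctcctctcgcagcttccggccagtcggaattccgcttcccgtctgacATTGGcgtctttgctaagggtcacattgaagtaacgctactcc
Cox6b2: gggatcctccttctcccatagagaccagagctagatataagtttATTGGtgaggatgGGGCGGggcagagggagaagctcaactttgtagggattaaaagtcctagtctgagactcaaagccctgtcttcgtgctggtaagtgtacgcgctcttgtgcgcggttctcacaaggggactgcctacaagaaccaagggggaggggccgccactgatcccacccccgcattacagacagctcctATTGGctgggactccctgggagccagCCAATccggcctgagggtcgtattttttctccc
The 3 common forms had observed-to-expected CpG ratios of 0.833 (Cox7a2), 0.842 (Cox8a) and 0.807 (Cox6b1), where 1 means as many CpG as the C and G content gives. The 3 other forms had lower ratios of 0.333 (Cox7a1), 0.115 (Cox8b) and 0.432 (Cox6b2). A pair not printed went the other way, with 0.368 for the common form Cox7b and 0.564 for the testis form Cox7b2. The letters of the ETS motif were found only in the window of Cox8a among these 6 windows, at -6 and 32 from the start. The TATA letters were found only in that of Cox8b, at 5, past the RefSeq start.

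A second set shows the promoters that combine letters of NRF1, ETS and YY1. Only 3 of the 79 member windows held matches to at least 2 of these 3 motifs: Atp5h (chr11:115419870-115420169, minus strand), which encodes a stalk subunit of ATP synthase, Uqcr11 (chr10:80406772-80407071, minus strand), a small subunit of complex III, and Ndufs6 (chr13:73328433-73328732, minus strand), an accessory subunit of complex I.
Atp5h: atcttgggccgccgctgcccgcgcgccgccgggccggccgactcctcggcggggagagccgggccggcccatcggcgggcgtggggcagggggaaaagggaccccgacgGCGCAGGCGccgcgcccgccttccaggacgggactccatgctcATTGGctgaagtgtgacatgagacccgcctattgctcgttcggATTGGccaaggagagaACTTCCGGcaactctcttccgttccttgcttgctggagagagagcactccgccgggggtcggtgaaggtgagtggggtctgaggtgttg
Uqcr11: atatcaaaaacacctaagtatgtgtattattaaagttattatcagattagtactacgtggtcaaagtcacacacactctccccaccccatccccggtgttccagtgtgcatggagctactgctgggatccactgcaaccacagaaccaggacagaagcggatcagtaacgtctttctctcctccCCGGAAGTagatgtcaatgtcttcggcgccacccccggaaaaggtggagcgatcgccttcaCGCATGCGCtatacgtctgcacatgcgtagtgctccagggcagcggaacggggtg
Ndufs6: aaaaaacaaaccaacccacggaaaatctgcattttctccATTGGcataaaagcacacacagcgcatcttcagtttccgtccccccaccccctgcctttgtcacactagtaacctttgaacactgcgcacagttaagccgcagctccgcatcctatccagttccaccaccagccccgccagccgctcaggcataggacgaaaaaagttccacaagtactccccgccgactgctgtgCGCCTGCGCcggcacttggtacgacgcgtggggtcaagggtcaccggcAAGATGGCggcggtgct
In Uqcr11 the ETS letters begin 66 bases before the start (-66) and those of NRF1 at -5. In Ndufs6 the NRF1 letters begin at -15 and those of YY1 at 34, past the start. All 3 genes were marked in every list.

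Lists held 16195 to 36509 peaks on chromosomes 1 to 19, X and Y, with the most in control replicate 3 and the fewest in 4xIOP replicate 3. The mean background recovered from fold and p was 87.4 to 173 fragments per 10000 bp, and the highest summit of each list, 374 to 464 fragments, equalled 2 times the length in bp of its shortest peak. Summits of member promoters held at most 66 to 169 fragments in a list, and 0 members reached 50% of that highest value in any list. All 8 rod markers were marked in all 6 lists, whereas 0 of 6 cone, 0 of 6 bipolar and 0 of 6 ganglion cell markers were. The long list of control replicate 3 held 5 of 6 bipolar markers, against 0 or 1 in the other lists. In bulk tissue, fewer cells of a type and less of the mark per cell cannot be told apart.

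Promoters of OXPHOS genes were nearly always marked. In all 6 lists 83 of 94 members were marked (88.3%), against 8669 of all 21755 protein-coding genes (39.8%), 65 of 80 cytosolic ribosomal protein genes (81.2%) and 29 of 40 proteasome subunit genes (72.5%). Taken list by list, the controls had 91.5%, 91.5% and 93.6% of members marked, and the 4xIOP lists 91.5%, 92.6% and 89.4%. The same shares over all genes were 49.0%, 46.6%, 57.4%, 47.8%, 46.0% and 45.0%. Another 5 members were marked in 1 to 5 lists and 6 in none.

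Marked members also had high peaks. The fold enrichment of a summit over its local background, set by the authors' peak caller, was ranked among the peaks of the same list, and a member's best peak was given its percentile (fold percentile, 0 to 100). Over the 83 members marked in all lists the controls had medians of 87.8, 85.2 and 92.9, and the 4xIOP lists had 89.4, 91.4 and 81.8, against 78.8, 76.9, 87.4, 77.3, 76.9 and 72.0 over the 8669 genes. Proteasome genes marked in all lists came close to the members, with 85.6, 83.7, 96.0, 89.3, 83.4 and 77.7. Ribosomal protein genes had 80.8, 82.7, 89.6, 74.4, 84.3 and 74.4. The highest and lowest medians were those of control replicate 3 and 4xIOP replicate 3 in each of these sets. Averaged over lists, 33 of the 83 members lay at or above the 90th percentile and 4 below the 50th, namely Ndufv1, Sdhb, Uqcrc1 and Atp5k. These are percentiles among all peaks of a list, where marked genes in general rank high. Ranked among the 8669 genes instead, 34.9% to 51.8% of the 83 members lay in the top 25% of a list. The 83 members were given by the presence of a peak, so these medians describe marked promoters and not all 94.

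**Figure D1:**
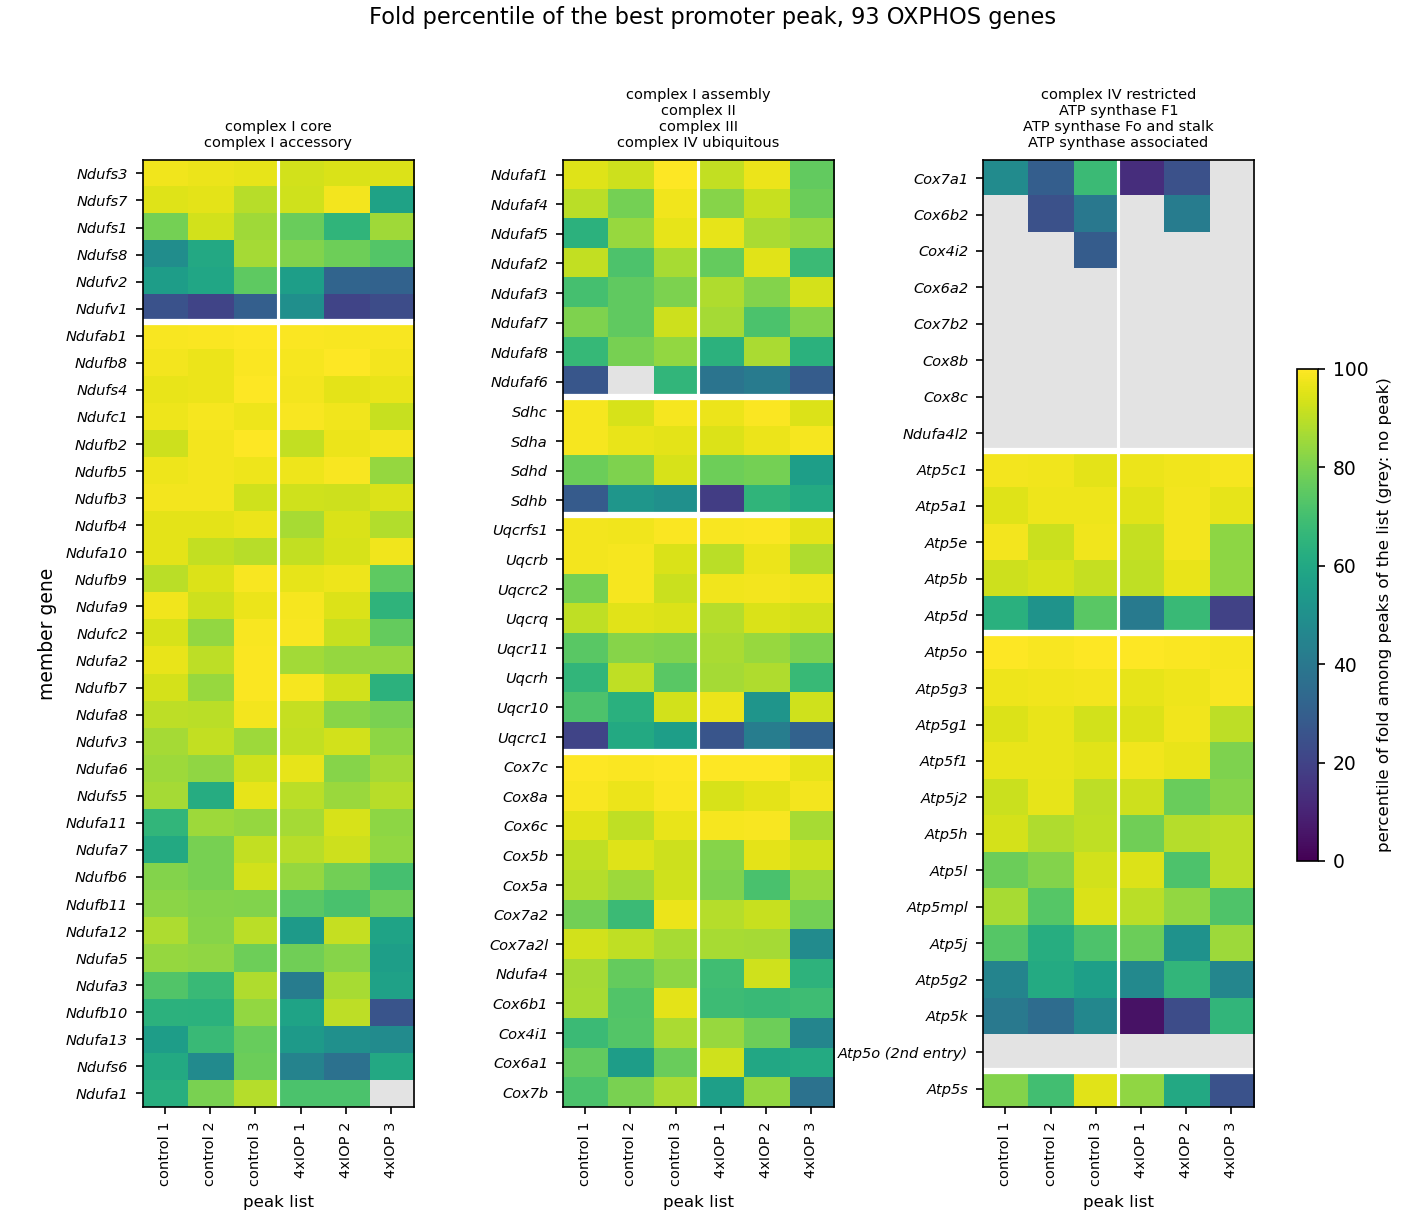
Each row is 1 of 93 member genes, grouped by complex in the order of the panel titles, and each column is 1 peak list, with the fold percentile of the best promoter peak as colour and grey where no peak was found. Most rows are bright in all 6 columns, and the 8 restricted genes of complex IV are mostly grey. Ndufv1, Sdhb, Uqcrc1 and Atp5k, marked in every list, have mean percentiles under 50.

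Complex I takes electrons from NADH. All 7 nuclear core genes, 28 of 29 accessory genes and 7 of 8 assembly factor genes were marked in all lists. Among core genes the best peak ranked highest at Ndufs3, a subunit of the arm that reaches into the matrix, with folds of 8.65, 7.69 and 9.54 in the controls and of 6.89, 6.99 and 7.30 in the 4xIOP lists, each given by replicate number. Ndufv1, which binds NADH and the flavin, had the lowest rank of all 83 members, with folds of 3.32, 3.03, 3.35, 4.10, 3.13 and 3.49 in the same order. Ndufs3 was above Ndufv1 in each list, and the core genes as a group had a median fold percentile of 71.4, below that of the accessory genes (88.8).

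Accessory subunits surround the core and stabilise it. Ndufab1, the mitochondrial acyl carrier protein, had folds of 9.65, 10.1, 15.4, 10.0, 9.22 and 9.79 and lay at or above the 99.1 percentile of every list. Ndufs6 ranked lowest among accessory genes, with folds of 4.48, 3.81, 5.88, 3.93, 3.63 and 4.71. Ndufa1, on chromosome X, was the accessory gene that missed 1 list: its folds were 4.58, 5.25 and 7.51 in the controls and 5.05 and 4.85 in 4xIOP replicates 1 and 2, and no peak was found in 4xIOP replicate 3, the shortest list. Its start lies 82 bp from that of Rnf113a1 on the other strand, and in 4 of the 5 lists the summit was nearer to Rnf113a1.

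Assembly factors build complex I and are not part of it. Their median fold percentile was 81.7, and they ranged from Ndufaf1 with folds of 7.60, 6.55, 13.5, 6.59, 7.66 and 5.46 to Ndufaf8, a partner of Ndufaf5, with 4.79, 5.23, 6.69, 4.66, 5.94 and 4.84. Ndufaf6 had no peak in control replicate 2, and its folds in the other lists were low, at 3.37 and 4.82 in control replicates 1 and 3 and 3.74, 3.75 and 3.67 in 4xIOP. The mean fold percentile of this gene over its 5 lists was 40.4, against 74.2 to 91.9 for the 7 assembly factors marked in all lists.

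Complex II is succinate dehydrogenase and has only nuclear subunits. All 4 genes were marked in all lists. Sdhc, a membrane anchor, had folds of 9.11, 6.83, 10.9, 7.89, 9.41 and 7.31, and Sdha, the flavoprotein, had 9.17, 7.64, 9.35, 7.26, 7.76 and 9.16. Sdhb, the iron-sulfur subunit that pairs with Sdha, had 3.43, 3.95, 3.99, 3.10, 4.56 and 4.76, below Sdha and Sdhc in each list. The summit of its best peak lay 317 to 359 bp downstream of the start in 4 lists and upstream in the other 2, at -446 bp in control replicate 2 and -356 bp in 4xIOP replicate 2.

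Complex III passes electrons from ubiquinol to cytochrome c, and all 8 nuclear genes were marked in all lists. Uqcrfs1, the Rieske iron-sulfur protein, ranked highest with folds of 8.86, 8.40, 12.5, 9.17, 9.43 and 7.56. Uqcrc1, a core protein of the matrix side, ranked lowest with 3.16, 4.26, 4.25, 3.36, 3.78 and 3.74. In 4xIOP replicates 1 and 2 its best peak lay far upstream of the start, at -2337 and -2280 bp, while in the other 4 lists it lay 227 to 299 bp downstream.

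Complex IV reduces oxygen, and here the members divided by isoform. All 12 genes of the common forms were marked in all lists, and 0 of the 8 genes of restricted forms were. Cox7c, a small common subunit, had the highest fold of all members in 4 lists, with folds of 11.4, 10.6, 13.4, 11.3, 11.8 and 7.65. Cox7b, also common and on chromosome X, was the lowest of the 12 with 5.04, 5.25, 7.30, 4.34, 5.63 and 3.93.

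The pairs showed this within 1 subunit. Cox7a2 had folds of 5.49, 4.58, 9.83, 6.32, 6.45 and 5.65, and the muscle form Cox7a1, marked in 5 lists, had 4.03, 3.29, 4.98, 2.92 and 3.26 with no peak in 4xIOP replicate 3. Cox7a1 was lower than Cox7a2 in every list, and in control replicate 1 its best promoter peak lay at -2407 bp from the start. Cox6b1 had 6.23, 4.81, 9.42, 4.87, 4.66 and 5.07, and the testis form Cox6b2 was marked only in control replicates 2 and 3 (3.15 and 3.64) and 4xIOP replicate 2 (3.76). Cox4i1 had 4.85, 4.84, 7.30, 5.94, 5.21 and 4.19, and Cox4i2, the form known from lung and induced by hypoxia, was marked only in control replicate 3, at a fold of 3.30.

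Other restricted forms had no promoter peak in any list. These were Cox6a2 and Cox8b of heart and skeletal muscle, Cox7b2 and Cox8c of testis, and Ndufa4l2, which is induced by hypoxia. Their common forms were marked throughout: Cox8a had folds of 9.32, 7.76, 12.7, 7.06, 7.37 and 8.63, Cox6a1 had 5.30, 4.07, 5.79, 6.84, 4.34 and 4.75, and Ndufa4 had 6.18, 5.03, 6.60, 4.91, 6.68 and 4.87. Of the markers of the tissues in which the restricted forms are known, 0 of 6 for testis and 1 of 8 for striated muscle were marked in all lists. Another 2 of the 8 muscle markers were marked in some lists, and the 6 testis markers in none.

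**Figure D2:**
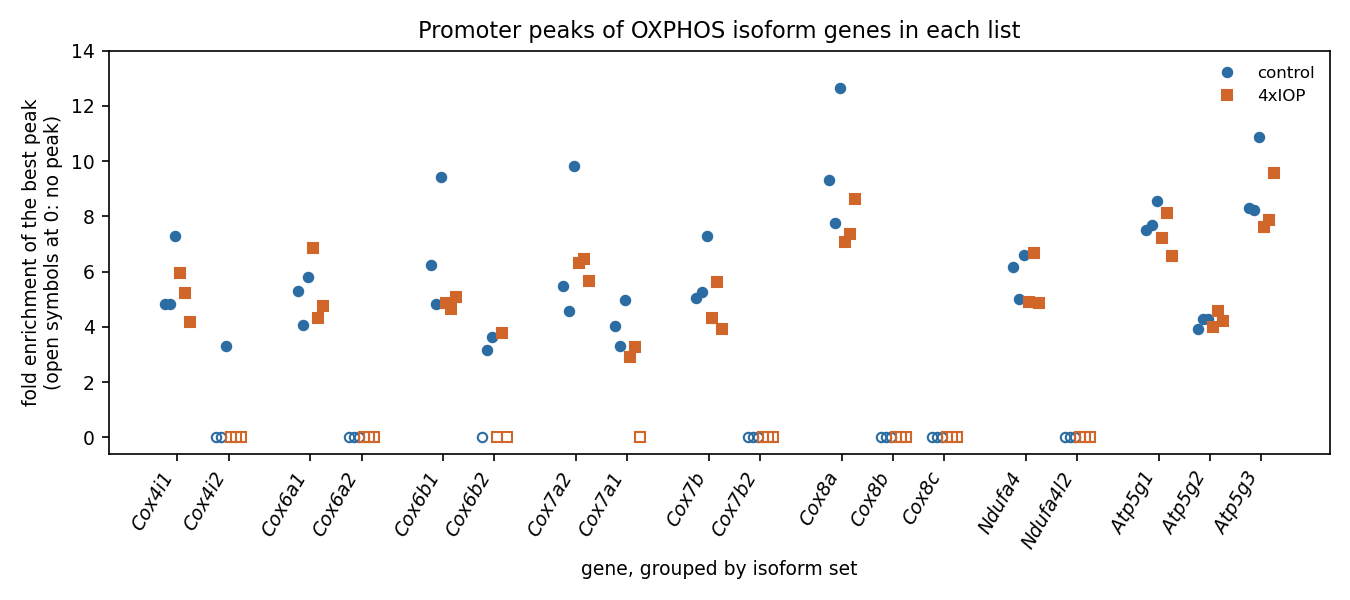
Fold enrichment of the best promoter peak (vertical axis, linear) in each of the 3 control and 3 4xIOP lists for the genes of 8 isoform sets, with open symbols at 0 where a list has no peak. The common form of each complex IV set is marked in all 6 lists and each restricted form lies below it or at 0, while the 3 genes of the ATP synthase c-ring are all marked.

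ATP synthase has a catalytic F1 head, a membrane Fo part and the stalks that join them. All 5 F1 genes were marked in all lists, with Atp5c1, the central shaft, highest (8.67, 8.29, 9.41, 7.94, 8.24 and 8.75) and Atp5d, a subunit of the same shaft, lowest (4.62, 3.90, 5.51, 3.82, 4.67 and 3.38). Of the 12 Fo and stalk entries 11 were marked in all lists. Atp5o, which joins the outer stalk to F1, had folds of 11.1, 9.74, 13.9, 11.0, 9.59 and 8.88, and Atp5k, a small membrane subunit that helps to pair the enzyme, had 3.76, 3.44, 3.85, 2.54, 3.21 and 4.93. The 1 unmarked entry is a second annotated gene with the symbol Atp5o (ENSMUSG00000116933.1), whose start lies inside the first (ENSMUSG00000022956.11), so that the symbol itself was marked.

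The c-ring of Fo is encoded by 3 genes that give the same mature protein. Atp5g1 had folds of 7.50, 7.68, 8.57, 7.24, 8.13 and 6.57, and Atp5g3 had 8.31, 8.25, 10.9, 7.61, 7.86 and 9.57. Atp5g2 had 3.91, 4.29, 4.28, 4.01, 4.58 and 4.20, lower than both in every list. Its promoter was nevertheless the widest of all members in every list, with 1544 to 2215 bp covered by peaks against a median of 551 to 1107 bp over the 83 members. Its mean fold percentile was 53.7, so width and height ranked this gene differently.

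Peaks of OXPHOS promoters mostly lay beside the start. From the most upstream start of each gene, 84.3% to 97.6% of the 83 members were covered at the best position, 250 to 300 bp downstream, and the best position of the 8669 genes lay 200 to 250 bp downstream with 73.5% to 89.9% covered. At the start, cover of members was 20.5%, 14.5% and 41.0% in the controls and 20.5%, 18.1% and 14.5% in 4xIOP, against 19.9% to 51.5% over all genes. In each of the 6 lists members were lower than all genes at the start and higher at the best position. The best peak's summit lay downstream of the nearest own start for 72.3% to 81.9% of members (67.1% to 72.7% of all genes), and within 500 bp of it for 92.8% to 95.2% (83.9% to 89.1%). These shares are descriptions of genes in the same lists, and no test was run on them.

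**Figure D3:**
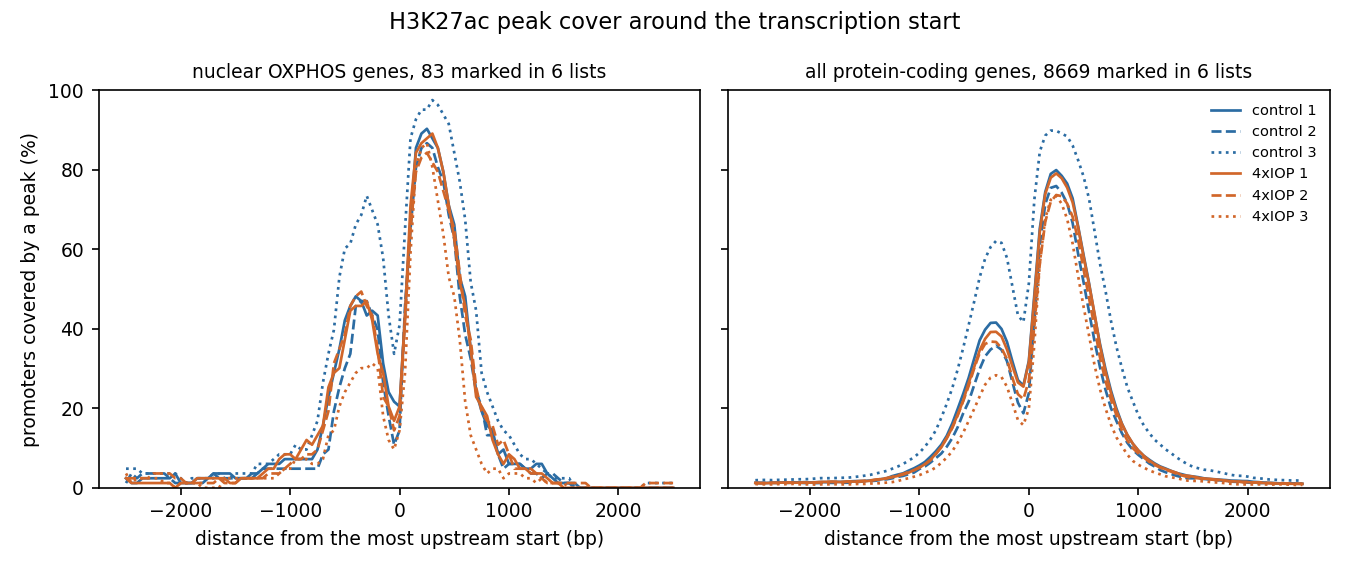
Percentage of promoters covered by a peak (vertical axis) at each distance from the most upstream TSS (horizontal axis, bp, transcription to the right) for the 83 OXPHOS genes and the 8669 protein-coding genes marked in 6 lists, 1 line per list. In both panels cover rises on either side of a trough at the start and control replicate 3 is highest there, and cover of the OXPHOS genes at the start is lower (14.5% to 41.0% against 19.9% to 51.5%).

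Many members share their promoter with a neighbour. Another protein-coding start lay within 1 kb of 31 members (33.0%), against 2687 of 21755 genes (12.4%), and 30 of the 31 neighbours were transcribed from the other strand. Some distances were very short: 3 bp from Ndufb11 to Rbm10 and from Ndufs1 to Eef1b2, and 10 bp from Ndufa7 to the ribosomal protein gene Rps28. A peak list cannot assign such a peak to 1 of the 2 genes. The summit was nearer to the start of another gene for 11 to 14 of the 84 to 88 members marked in a list. Of the 31 members 30 were marked in all lists with a median fold percentile of 83.0, and of the other 63 members 53 were, with 87.7, so members with a near neighbour did not have the higher median.

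A neighbour of particular kind is Gabpa. It encodes a subunit of GABP, a regulator of OXPHOS genes, and its start lies 379 bp from that of Atp5j, a stalk subunit of ATP synthase, on the other strand. Both genes had the same best peak in every list, with folds of 5.15, 4.33 and 5.28 in the controls and 5.37, 4.04 and 6.11 in 4xIOP. These values were read from 1 peak per list and are not independent for the 2 genes.

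RefSeq windows were found for 74 of the 93 member symbols (79 windows), and 19 symbols had no entry. NRF1 letters occurred in 29.1% of member windows, against 16.3% of windows of all genes marked in 6 lists and 8.92% of all 20061 windows of protein-coding genes. YY1 letters occurred in 12.7% against 5.34% and 3.11%. The ETS letters did not share this pattern, with 6.33% of member windows against 9.90% and 5.37%. At least 1 of these 3 motifs was found in 44.3% of member windows (35 of 79), 28.5% of windows of marked genes and 15.9% of all windows.

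General promoter elements differed less or in the other direction. The Sp letters were found in 43.0% of member windows and in 65.1% of windows of marked genes, the CCAAT box in 43.0% and 37.3%, CRE in 5.06% and 3.59%, and the TATA box in 10.1% and 6.20%. Over all windows the shares were 48.0% for Sp, 37.9% for the CCAAT box, 2.32% for CRE and 12.1% for the TATA box. In windows of members marked in all 6 lists the TATA share was 8.11%. Member windows had a median GC content of 57.7% and a CpG ratio of 0.828, against 62.0% and 0.802 in windows of marked genes and 57.0% and 0.591 in all windows. The 5 windows of members that were marked in fewer than 6 lists had a median CpG ratio of 0.432 and 0 matches to NRF1, ETS or YY1. The ratios were not low throughout this set, with 1.05 for Ndufa1, and Cox7b, marked in all lists, had a low ratio of 0.368. Among members marked in all lists, the median fold percentile was 85.9 for the 34 symbols with at least 1 of the 3 motifs and 82.8 for the 35 symbols without. A match is a run of letters, and no factor was measured here.

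**Figure D4:**
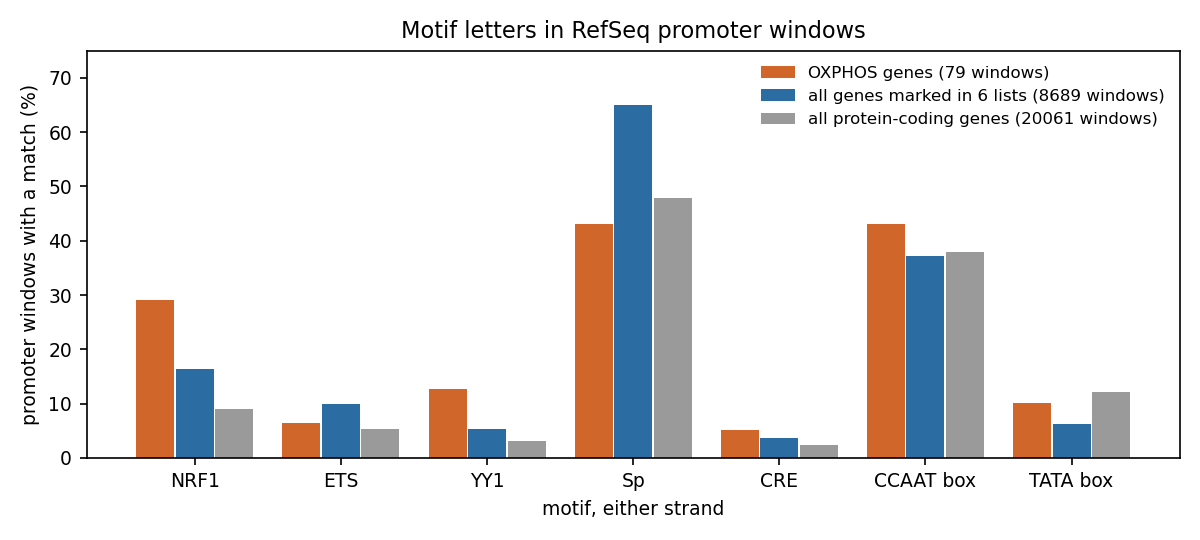
Percentage of RefSeq promoter windows with at least 1 match on either strand (vertical axis, from 0) for 7 motifs in OXPHOS genes, all genes marked in 6 lists and all protein-coding genes. NRF1 and YY1 letters are most frequent in OXPHOS windows (29.1% and 12.7%), and Sp letters are most frequent in marked genes (65.1%).

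Next, control and 4xIOP were compared. Control lists had 92.2% ± 1.23 of the members marked and 4xIOP lists 91.1% ± 1.63 (SD, n = 3), a difference of -1.06 percentage points that was smaller than the spread between replicates. Over all genes it was 51.0% ± 5.69 and 46.3% ± 1.43. Of the members, 0 were marked in all control and no 4xIOP list, where the share over all genes was 0.363%, and 0 were marked in all 4xIOP and no control list, where it was 0%. The median fold percentile of the 94 members, with unmarked genes at 0, was 85.8, 82.5 and 91.5 in the controls and 86.9, 87.0 and 78.6 in the 4xIOP lists, with means of 86.6 ± 4.53 and 84.2 ± 4.78 (SD, n = 3). The groups overlapped as labelled. The 3 highest values were those of control replicate 3 and 4xIOP replicates 1 and 2, which are the 3 lists that carry the control name, so this comparison depends on whether labels or names are right. Between the 2 lists whose names match the labels, the differences were larger, at -4.26 points for the share and -12.8 for the percentile, and they rest on the longest list against the shortest.

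To compare single promoters, the folds of the 8669 genes marked in all lists were ranked within each list, turned into normal scores and tested with limma. Of 83 members 0 were higher and 0 lower in 4xIOP at an adjusted p under 0.05 (Benjamini-Hochberg), and the shares over all genes were 0% and 0%. At an unadjusted p under 0.05 there were 6 members (7.23%), 4 higher and 2 lower, against 3.11% of all genes (270 genes). The smallest adjusted p of any member by limma was 0.99957. Scores were higher in 4xIOP for 42 members and lower for 41, and the median difference was 0.000200 on the score scale against 0.00492 over all genes. This even split depended on the setting, with 34 higher and 49 lower when promoters were ranked by summit fragments or when 4xIOP replicate 2 was left out.

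By role the counts were less even. In complex III 7 of 8 genes had higher scores in 4xIOP, as had 5 of 7 complex I assembly factors, 3 of 4 complex II genes, 7 of 11 Fo and stalk genes and 3 of 5 F1 genes. In complex I 19 of 28 accessory and 5 of 7 core genes had lower scores, and of the ubiquitous complex IV genes 6 were higher and 6 lower. Over all genes 4388 scores were higher and 4281 lower. Median fold percentiles (4xIOP minus control) went the other way for complex II (-5.91), F1 (-4.14) and Fo and stalk genes (-3.60). They went the same way for complex III (2.89) and the assembly factors (1.91). None of the genes in these roles passed the adjusted threshold of limma, so the counts are given as a description. In 6 members every 4xIOP list ranked above every control list (Ndufa7, Ndufa11, Ndufaf3, Ndufb8, Ndufs8 and Uqcr11), where the share over all genes was 4.25%, and in 3 every 4xIOP list ranked below (Ndufa2 and Ndufb4 among them), where it was 3.93%. The members' shares were 7.23% (6 of 83) and 3.61% (3 of 83).

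Members with small unadjusted p in either direction were looked at list by list, as percentiles among the 8669 genes. Ndufaf3, an assembly factor of complex I, lay at 36.4, 47.6 and 30.2 in the controls and at 72.8, 58.3 and 88.9 in the 4xIOP lists. The groups did not overlap, and the score difference was 0.988 ± 0.380 (SE, limma, unadjusted p = 0.0173, adjusted p = 0.99957). When promoters were ranked by summit fragments in place of fold, this difference fell to 0.328. Its best peak lay upstream of the start in all lists and covered it only in control replicate 3. The length of its promoter under peaks went the other way without overlap, with 1567, 1652 and 1911 bp in control and 1303, 1102 and 1053 bp in 4xIOP (limma on ranks, unadjusted p = 0.171).

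Uqcrc2, a core protein of complex III, lay at 50.6, 97.0 and 66.5 in control and at 95.1, 95.6 and 96.2 in 4xIOP. The groups overlapped through control replicate 2 (score difference 0.938 ± 0.435, SE, limma, unadjusted p = 0.0437). Ndufa11, an accessory subunit in the membrane arm, lay at 29.4, 66.4 and 40.1 in control and at 69.1, 85.2 and 68.8 in 4xIOP. In control replicate 1 its summit was nearer to the start of Vmac, and with promoters ranked by summit fragments its score difference was 0.143. The groups were separated by a narrow margin (0.802 ± 0.383, SE, limma, unadjusted p = 0.0497), and the length of its promoter under peaks went the other way, with 956, 652 and 1335 bp in control and 594, 501 and 335 bp in 4xIOP (limma on ranks, unadjusted p = 0.0143).

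In the other direction, Ndufa2, an accessory subunit, lay at 92.1, 77.5 and 97.7 in control and at 67.6, 63.6 and 70.5 in 4xIOP, without overlap (-0.941 ± 0.387, SE, limma, unadjusted p = 0.0249). Atp5s, coupling factor B, lay at 55.5, 37.6 and 81.4 and at 62.5, 27.6 and 6.29, and its groups overlapped (-0.840 ± 0.455, SE, limma, unadjusted p = 0.0798). None of these genes passed the adjustment, and 270 genes had an unadjusted p under 0.05.

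**Figure D5:**
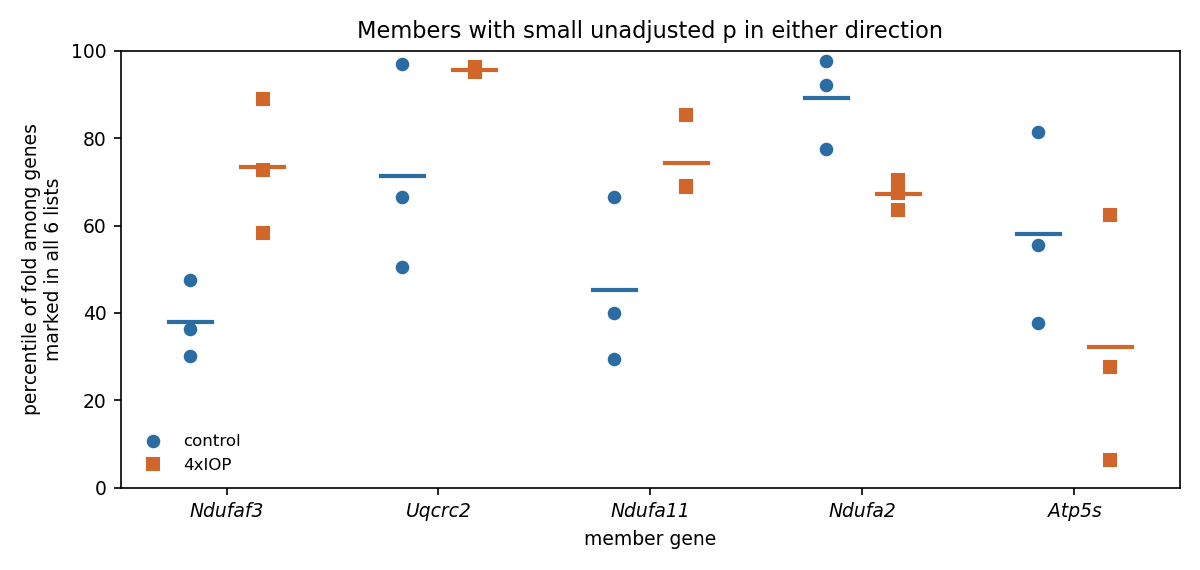
Percentile of the fold of the best promoter peak among the 8669 genes marked in all lists (vertical axis) for 5 members with small unadjusted limma p, with 1 symbol per list and a bar at the mean of the 3 lists of a group. Ndufaf3, Ndufa11 and Ndufa2 show no overlap between control and 4xIOP, and Uqcrc2 and Atp5s do.

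The length of a promoter under peaks was tested in the same way. By limma with Benjamini-Hochberg adjustment 0 of 83 members were called, with 4 at an unadjusted p under 0.05 (4.82%) where the share over all genes was 5.27%, and the smallest adjusted p of a member was 0.756. Ranks of covered length were higher in 4xIOP for 51 members and lower for 32. All genes leaned the same way, with 4770 higher and 3899 lower. The split of the members depended on 1 list, with 41 higher and 42 lower when control replicate 3 was left out.

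Genes of the pathway outside the name rule were also mostly marked. Cyc1, the cytochrome of complex III, had folds of 7.51, 6.74, 9.16, 5.70, 7.09 and 6.04, and Cycs, cytochrome c, had 8.29, 8.07, 9.18, 7.62, 8.42 and 5.52. The testis form of cytochrome c, Cyct, had no peak in any list. Of 37 other assembly factors 34 were marked in all lists and 3 in some, and by limma 0 of the 34 were called (0% over all genes), with 2 at an unadjusted p under 0.05 (3.11% over all genes).

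Regulators of OXPHOS genes were marked to different degrees. Of 13 regulators 11 were marked in all lists, and by limma 0 of these were called (0% over all genes), with 1 at an unadjusted p under 0.05 (3.11% over all genes). Nrf1 had folds of 8.51, 7.87, 6.76, 7.07, 7.74 and 7.44, in control replicate 3 below the median of the 8669 marked genes (7.30). Tfam, the factor that packs and transcribes mitochondrial DNA, had 6.44, 4.79, 7.61, 6.01, 7.18 and 6.08, in control replicate 2 below that median (5.07). Esrra, the nuclear receptor ERRα, had 5.82, 4.70, 7.79, 5.21, 5.06 and 6.44, and Ppargc1a, the coactivator PGC-1α, was low at 2.45, 2.69, 3.17, 3.08, 2.85 and 3.72. Polrmt, the RNA polymerase of mitochondria, was marked in all 3 control lists (3.82, 4.60 and 5.44) and in no 4xIOP list, and was 1 of the 79 genes with this pattern. Pprc1, a coactivator related to PGC-1α, was the other regulator not marked in all lists, with folds of 7.27 in control replicate 3 and 3.94, 4.08 and 3.96 in 4xIOP and no peak in control replicates 1 and 2. The regulator with an unadjusted p under 0.05 was Yy1, the gene of the factor YY1. Its folds were 4.43, 4.98 and 4.60 in control and 6.23, 5.88 and 6.36 in 4xIOP, and its score difference was 1.34 ± 0.389 (SE, limma, unadjusted p = 0.00264, adjusted p = 0.99957). It did not pass the adjustment. Polrmt, Pprc1 and Yy1 were chosen after their values were seen.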

How the data were processed

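H3K27ac ChIP-seq of 6 bulk retina samples was analysed from the peak list deposited for each sample. Each peak carries the fold enrichment at its summit (a ratio of fragments to local background, 1 added to each), its p-value and q-value as −log10, and an integer score, all computed by the authors' peak caller. Scores were not used. The submitters' processing notes name mm10, STAR 2.7.8a, MACS2, HOMER, edgeR and bedtools 2.29.2 without saying which step used them, and the caller's settings are not given in the sources used here. The lowest −log10 q of any list was 1.31.

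Groups were taken from the labels. The lists state no read counts. Fragments per summit and the background of a list were recovered from fold and p under a Poisson model, which gave back the −log10 p of the file, with a tolerance of 0.001, for over 99.99% of peaks in each list. Peaks elsewhere than chromosomes 1 to 19, X and Y were dropped. Starts came from the GENCODE vM21 basic annotation (41249 positions). Folds were ranked within a list, because folds of separate lists share no scale, and normal scores were tested with limma 3.58.1 in R 4.3.3, two-sided, with Benjamini-Hochberg adjustment over all 8669 genes marked in 6 lists. The fits were also run on simulated scores with shifted genes, but the share recovered is not reported here. With 3 lists per group, 0 calls do not show that no promoter changed. Figures and counts were made with Python 3.11.15, pandas 2.3.3 and scipy 1.17.1.

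Named genes were the members not marked in all lists, the highest and lowest member of each role, the isoform sets, the 3 smallest limma p in each direction, and cytochromes and regulators. The values of 1 member are not reported here, although it enters all counts. Members and lists were chosen with earlier results of these data known. Promoter windows were RefSeq's (GRCm38.p6). Alternatives were a stricter q, equal numbers of peaks, narrower promoters, summits in place of overlaps, another gene filter, ranks by summit fragments, the class of shortest peak length as a covariate, a replicate block, the 2 lists with matching names and leaving out each list.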

Additional observations from a re-analysis of the deposited data

How the results depend on the processing

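The counts of members and of all genes called by limma were 0 in each direction under all 14 alternatives, and 0 members were marked in every list of 1 group and no list of the other under the 10 alternatives tried for that count. The number of members at an unadjusted p under 0.05 ranged from 1 to 8 (179 to 478 over all genes), against 6 (270): it was 1 without control replicate 1, 3 without control replicate 3 and 8 without control replicate 2, 3 with the same number of top peaks per list and 1 with ranks by summit fragments. The smallest adjusted p of limma over all genes ranged from 0.460 to 0.999795. The members' median score difference, 0.000200, ranged from -0.112 without 4xIOP replicate 2 to 0.156 without 4xIOP replicate 3. The difference in marked share, -1.06 points, was -3.90 with only peaks at a −log10 q of at least 5 and -4.26 in the 2 lists whose carried name matches the label, and leaving out 1 list gave -1.77 to -0.177. The difference in median fold percentile, -2.44, was -12.8 in those 2 lists and 1.77 with the same number of top peaks, and leaving out 1 list gave -4.49 to 0.317. Covered length, where leaving out each list was added after seeing the data, gave 0 calls in every fit. The 5 members named for their p kept their direction in every alternative in which they were tested, but not their size: score differences ranged from 0.328 to 1.21 for Ndufaf3, 0.557 to 1.49 for Uqcrc2, 0.143 to 1.08 for Ndufa11, -1.25 to -0.636 for Ndufa2 and -1.30 to -0.383 for Atp5s. The smallest came with ranks by summit fragments for Ndufaf3 and Ndufa11, without control replicate 1 for Uqcrc2, without control replicate 3 for Ndufa2 and without 4xIOP replicate 3 for Atp5s.

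Blocking on replicate number gave 0 called members in limma, with 4 at an unadjusted p under 0.05, and 0 genes. The same-numbered lists did not deviate together (correlations of -0.0167, -0.0443 and -0.144 over 8669 genes), so the numbers were not taken to pair the samples. Without read counts, a promoter under a list's threshold gives no value.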
